A study of Mus musculus with 2 samples.

Results

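The 10 genes described here encode the NF-kB transcription factor subunits and their inhibitors, and were taken by symbol from the 32285 genes of the deposited feature lists. They are the subunit genes Rela, Relb, Rel, Nfkb1 and Nfkb2, the IkB genes Nfkbia, Nfkbib and Nfkbie, and the nuclear IkB-like genes Nfkbiz and Bcl3. All 10 were found, and in each of 5 gated cell classes all 10 had at least 50 UMIs (unique molecular identifiers, each 1 counted RNA molecule) over both libraries. Cells dissociated from mouse tumours and enriched for CD45, the pan-leukocyte surface protein, gave 2 single-cell RNA libraries. The first is of the group given CEP, read as cepharanthine from the series title. The second is of the Vehicle group, spelled Vehide in its label. The labels give no mouse strain, age, tumour line, dose or schedule. The design text states 5 biological replicates per group, but the labels do not link cells to animals. Each group is therefore 1 sample, no test between groups was possible, and every interval given covers counting error only.

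NF-kB subunits bind DNA as dimers. In resting cells IkB proteins hold these dimers in the cytoplasm. In the canonical pathway the IKK complex marks IkB for destruction and dimers of RelA or c-Rel with p50 enter the nucleus. In the alternative pathway the kinase NIK (Map3k14) leads to processing of p100, the Nfkb2 product, and frees RelB. Several of these genes, Nfkbia and Nfkb2 among them, are known targets of NF-kB, so that the inhibitor is made again after each activation. The series title places NF-kB between protein kinase C zeta and PARP1. Localisation and phosphorylation of the proteins are not measured by RNA counts.

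Cells were gated on raw UMIs. Macrophage cells had at least 10 UMIs of C1qa, C1qb and C1qc together, and numbered 4706 in CEP and 5160 in Vehicle. Neutrophil cells had Csf3r or Cxcr2 and fewer than 3 C1q UMIs (1687 and 2143 cells). T cells had at least 2 Cd3d, Cd3e and Cd3g UMIs and fewer than 3 C1q UMIs (172 and 271 cells). Dendritic cells had Flt3 and fewer than 10 C1q UMIs (92 and 98 cells), and epithelial cells had at least 10 Krt8 and Krt18 UMIs and fewer than 10 C1q UMIs (834 and 133 cells). Of the 9544 CEP and 9932 Vehicle barcodes kept, 2107 and 2168 met no gate. Epithelial cells made up 8.74% of kept CEP barcodes and 1.34% of kept Vehicle barcodes after a CD45 selection.

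The summed markers of each class were highest in their own gate, though the epithelial marker Cdh1 was as high in the dendritic gate (45.9 UMIs per 1000000 UMIs of the class, CPM, in CEP, 52.8 CPM in Vehicle) as in the epithelial gate (38.8 and 52.4 CPM). Some gates also held RNA of other cells. The T cell gate held 7 neutrophil markers at a sum of 26319 CPM in CEP and 40848 CPM in Vehicle. In the neutrophil gate, 4 fibroblast markers summed to 1395 CPM in CEP and 10.2 CPM in Vehicle, and 7 epithelial markers to 349 and 57.0 CPM. In the epithelial gate 8 macrophage markers summed to 45.8 CPM in CEP and 46.1 CPM in Vehicle, 7 neutrophil markers to 416 and 202 CPM, and 4 fibroblast markers to 33.1 and 3.41 CPM. The 2 libraries shared 136 barcode sequences. By an estimate from foreign markers, RNA free in the suspension could supply 0.193% to 34.2% of a member's level. None of the 100 member levels lay within this reach. The estimate takes the largest of the macrophage, neutrophil, T cell and epithelial sources, at the median share of its markers. Dendritic cells and fibroblasts were not counted as sources, and single markers reached higher shares, so the estimate is no upper limit.

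For each of the 10 members the span across classes was wider than the difference between CEP and Vehicle in any class. Rel, which encodes c-Rel, known for its part in lymphocyte and antigen-presenting cell activation, had the widest range. Its level was 414 CPM in CEP dendritic cells and 398 CPM in Vehicle dendritic cells. T cells followed at 185 CPM in CEP and 198 CPM in Vehicle, then macrophages at 144 and 137 CPM. Neutrophils had 112 CPM in CEP and 144 CPM in Vehicle, below macrophages in CEP and with an interval that overlapped theirs in Vehicle. Epithelial cells were lowest, at 21.1 CPM in CEP and 16.8 CPM in Vehicle, which put dendritic cells 19.6-fold and 23.7-fold above them. With each cell thinned to 1000 UMIs, 28.6% of CEP and 30.5% of Vehicle dendritic cells held a Rel UMI, against 1.32% and 1.504% of epithelial cells. Unthinned these shares were 87.0% and 83.7% of dendritic cells and 36.7% and 35.3% of epithelial cells, at median depths of 9765 and 9554 UMIs and of 26412.5 and 27614 UMIs.

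**Figure D1:**
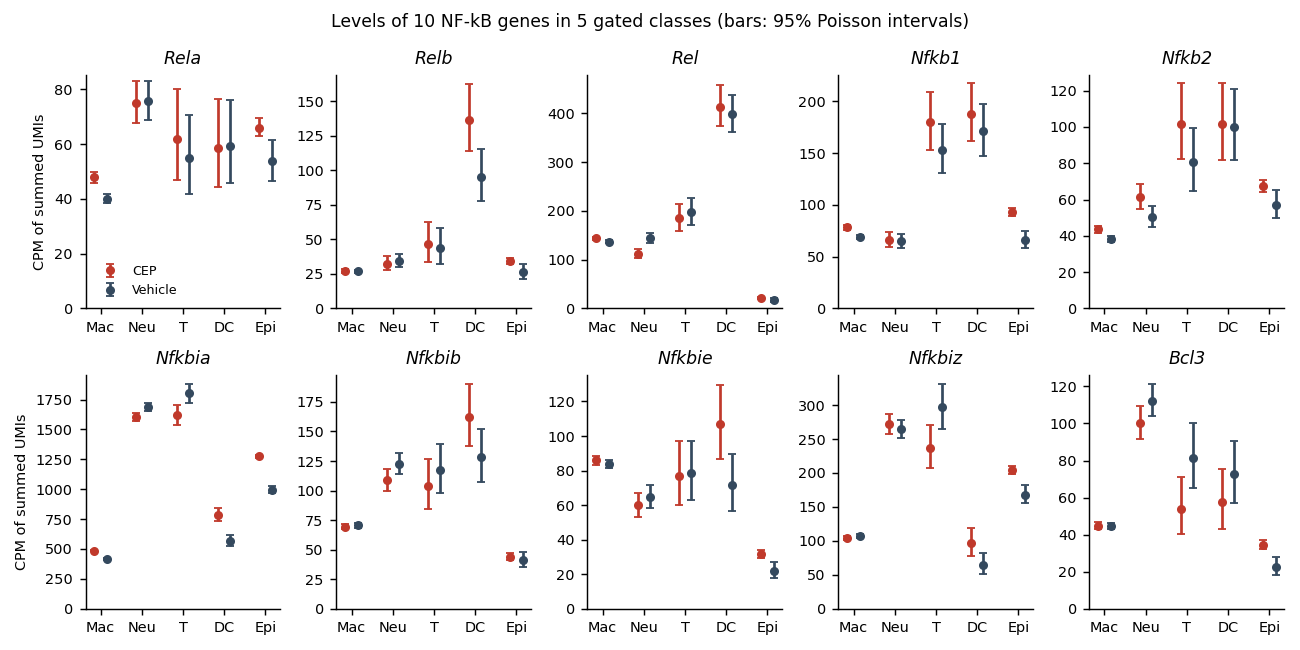
Level of each of the 10 genes (vertical axis, CPM of UMIs summed over a class) in the macrophage (Mac), neutrophil (Neu), T cell (T), dendritic (DC) and epithelial (Epi) gates. Red points are CEP and dark points Vehicle, 1 library each, with 95% Poisson intervals. Rel and Relb peak in dendritic cells, Nfkbia in T cells and neutrophils, and Bcl3 in neutrophils.

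Relb, the partner of p52 in the alternative pathway, was also highest in dendritic cells, at 137 CPM in CEP and 95.3 CPM in Vehicle. The next class, T cells, had 46.5 and 43.9 CPM, and the order of the remaining classes differed between the libraries. Rela, the transactivating subunit of the canonical dimer, was the flattest, with a span of 1.57-fold in CEP and 1.89-fold in Vehicle between neutrophils and macrophages. Rela had 75.1 CPM in CEP neutrophils and 75.7 CPM in Vehicle neutrophils, against 47.8 and 40.0 CPM in macrophages. As UMI ratios, Relb to Rela was 2.33 (1.68 to 3.25) in CEP dendritic cells and 1.60 (1.16 to 2.23) in Vehicle dendritic cells, and between 0.432 and 0.800 in the other classes of both libraries. The ratio of Rel to Rela was 7.05 and 6.70 in dendritic cells and 0.320 and 0.312 in epithelial cells.

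Nfkb1, the gene of p105 and p50, was highest in dendritic cells (188 CPM in CEP, 171 CPM in Vehicle) and T cells (180 and 153 CPM), whose intervals overlapped in both libraries. Nfkb2 stood at 101 CPM in CEP and 100.01 CPM in Vehicle dendritic cells and at 102 and 80.5 CPM in T cells, and was lowest in macrophages at 43.6 and 38.1 CPM.

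Nfkbia encodes IkB alpha, the inhibitor that is degraded and made again fastest. It was highest in T cells, at 1621 CPM in CEP and 1801 CPM in Vehicle, and neutrophils, at 1605 and 1689 CPM. These neighbours overlapped within each library. Epithelial cells had 1274 CPM in CEP and 996 CPM in Vehicle, dendritic cells 786 and 567 CPM, and macrophages were lowest at 487 and 415 CPM. The order of the 5 classes was the same in both libraries. Nfkbib, the gene of IkB beta, and Nfkbie, that of IkB epsilon, did not follow it: both were lowest in epithelial cells, Nfkbib at 44.1 CPM in CEP and 41.4 CPM in Vehicle, and Nfkbie at 31.5 and 22.02 CPM. The UMI ratio of Nfkbia to Nfkbib was accordingly 28.9 in CEP and 24.0 in Vehicle epithelial cells, 14.7 and 13.8 in neutrophils, 7.02 and 5.89 in macrophages and 4.84 and 4.42 in dendritic cells. The 3 IkB genes summed over the 5 subunit genes gave 5.11 in CEP and 5.08 in Vehicle neutrophils, but 1.17 and 0.931 in dendritic cells.

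Nfkbiz encodes IkB zeta, a nuclear cofactor for a subset of target genes, and Bcl3 a nuclear partner of p50 and p52 homodimers. Nfkbiz was lowest in dendritic cells, at 97.1 CPM in CEP and 65.1 CPM in Vehicle, though in CEP the interval overlapped that of macrophages. It reached 272 and 265 CPM in neutrophils and 237 and 296 CPM in T cells. Bcl3 was highest in neutrophils, at 100.4 CPM in CEP and 112 CPM in Vehicle, and lowest in epithelial cells, at 34.5 and 22.8 CPM.

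Promoter sequences of 7 members are in the RefSeq set for GRCm38.p6, as 9 windows around start sites, 3 of them of Nfkb2. Promoters of Relb, Nfkb1 and Nfkbiz were not used here. The Nfkbia promoter is shown because this inhibitor carried the most UMIs of the members in every class of both libraries. It is the 250 bases before the start site at chr12:55492648-55492897 on the minus strand, written 5′ to 3′ in lower case with no part marked.
Nfkbia: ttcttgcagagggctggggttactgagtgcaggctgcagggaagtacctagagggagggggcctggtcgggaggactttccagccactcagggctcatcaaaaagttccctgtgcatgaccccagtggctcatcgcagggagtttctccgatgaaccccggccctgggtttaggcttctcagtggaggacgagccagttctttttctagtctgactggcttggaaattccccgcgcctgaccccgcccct

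Within the dendritic gate the genes split sharply. Cells with at least 2 Ccr7 and Fscn1 UMIs, genes of dendritic cells that migrate to lymph nodes, numbered 39 in CEP and 33 in Vehicle. Cells with Xcr1 or Clec9a, genes of cross-presenting dendritic cells, numbered 37 in CEP and 47 in Vehicle. These subsets are ranges of UMI counts and not cell types. Ccr7 is itself on the list of textbook NF-kB target genes described further on, so this cut and the members' levels may not be independent. Relb stood at 290.3 CPM in CEP and 272 CPM in Vehicle Ccr7/Fscn1 cells, against 19.9 and 11.4 CPM in Xcr1/Clec9a cells. Against all other dendritic cells of its library, the Ccr7/Fscn1 subset was 11.3-fold higher in Relb in CEP (6.46 to 21.3) and 13.5-fold higher in Vehicle (7.75 to 25.2). Nfkb2 was 6.84-fold higher (3.96 to 12.6) in CEP and 6.26-fold higher (4.03 to 9.95) in Vehicle, at 201 and 244 CPM. Rel reached 637 CPM in CEP and 725 CPM in Vehicle, 2.51-fold and 2.80-fold above the other dendritic cells. Nfkbia reached 1291 and 1124 CPM, 3.07-fold and 3.40-fold above them. For Bcl3 the interval of this ratio included 1 in both libraries (1.29-fold, 0.725 to 2.28, in CEP and 1.35-fold, 0.815 to 2.18, in Vehicle). Of the 10 members, the alternative-pathway genes Relb and Nfkb2 had the highest ratios in both libraries.

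**Figure D2:**
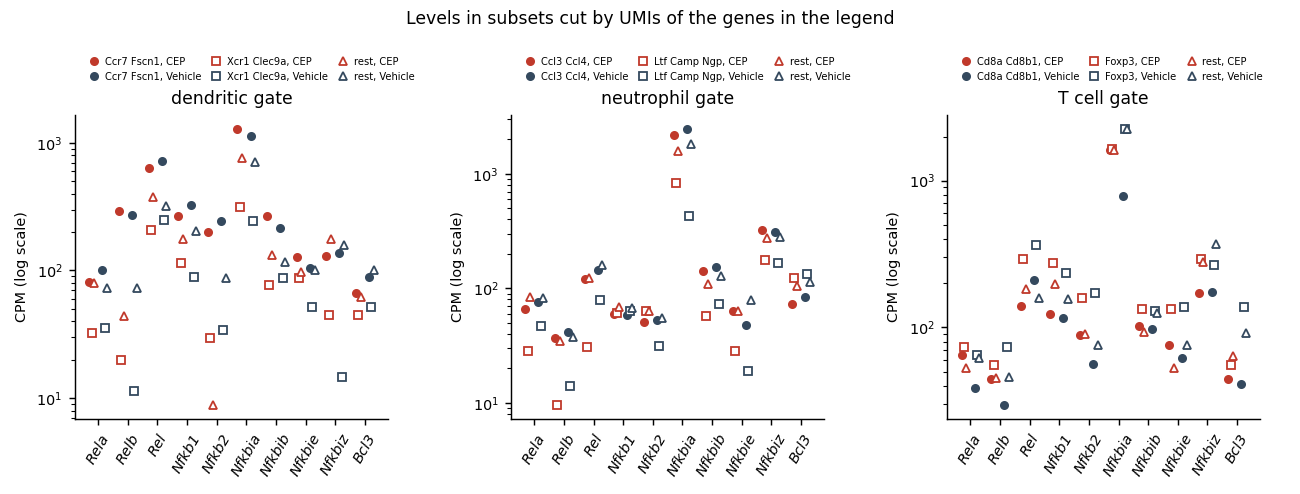
Level of the 10 genes (vertical axis, CPM, log scale) in subsets of the dendritic, neutrophil and T cell gates, cut by UMIs of the genes in each legend. Red is CEP and dark is Vehicle, 1 library each; no error bars are drawn. In the dendritic panel the filled Ccr7/Fscn1 points of Relb lie at 290.3 and 272 CPM and the open Xcr1/Clec9a squares at 19.9 and 11.4 CPM.

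Within neutrophils, cells with at least 5 Ltf, Camp and Ngp UMIs, granule genes of immature cells, had the lowest Nfkbia, 839 CPM in 73 CEP cells and 432 CPM in 124 Vehicle cells. Neutrophils with at least 5 Ccl3 and Ccl4 UMIs had 2194 CPM in CEP and 2479 CPM in Vehicle. Both Ccl3 and Ccl4 are also on the list of textbook target genes. The granule-gene subset was also low in Rel, at 30.5 CPM in CEP and 78.4 CPM in Vehicle, against 122 and 160.4 CPM in the neutrophils of neither subset. Bcl3 did not follow: it had 124 and 133 CPM in the granule-gene cells and 72.9 and 83.9 CPM in the Ccl3/Ccl4 cells. In T cells, Foxp3 cells, few in number at 27 and 39, were above the other T cells in Rel (1.81-fold, 1.27 to 2.55, in CEP and 2.07-fold, 1.46 to 2.89, in Vehicle). They were also above them in Nfkb1 (1.73-fold and 1.65-fold), Nfkb2 (1.78-fold and 2.47-fold) and Nfkbie (2.09-fold and 1.94-fold), with intervals above 1 in both libraries.

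Macrophage subsets were closer together. Cells with at least 2 UMIs of Cxcl9 and Cxcl10, chemokines induced by interferon gamma, were above the other macrophages in Relb. The ratio was 1.29-fold in CEP (1.11 to 1.49) and 1.45-fold in Vehicle (1.28 to 1.63). Nfkbia was highest in the cells with at least 2 UMIs of Cbr2, Folr2 and Cd163, genes of resident-type macrophages. Its level there was 607 CPM in CEP and 608 CPM in Vehicle. Cycling cells, with at least 2 Mki67 and Top2a UMIs, had the lowest Rel of the macrophage subsets, 121 CPM in CEP and 114 CPM in Vehicle, with 126 and 136 CPM in the Cbr2/Folr2/Cd163 cells. In epithelial cells Nfkbiz was lowest in cycling cells, at 151 and 109 CPM, and highest in cells with at least 3 Ndrg1, Car9 and Ankrd37 UMIs, genes induced by low oxygen, at 269 and 232 CPM.

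The genes closest to each member in pattern were ranked by Pearson r of log2(CPM + 1) over 32 points, 16 subsets in each of 2 libraries, among 5779 genes. The points of a library share its preparation and depth, so the values are descriptions. Relb ran closest to Map3k14, the NIK gene (r = 0.83), with Nfkb2 the third (r = 0.82). Rel ran closest to Ptger4, a prostaglandin E2 receptor (r = 0.97). Nfkb1 ran closest to Birc2 (r = 0.90), an inhibitor-of-apoptosis gene that acts in TNF receptor signalling. Nfkbie ran closest to Malt1 (r = 0.91), the paracaspase upstream of IKK, Bcl3 to Ltb4r1, a leukotriene B4 receptor (r = 0.89), and Nfkbia to Pnrc1, a nuclear receptor coactivator gene (r = 0.90).

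Between the groups, a member was called higher where its CPM was at least 25% above Vehicle in CEP, and lower where it was at most 0.8 of Vehicle. In macrophages, 0 of 10 members were called higher, where 11.5% of 12764 genes were called higher, and 0 were called lower, where 4.90% were. The median member log2 ratio was 0.05, against 0.02 over all genes. Intervals of 5 members nevertheless lay above 0.
Rela had 47.8 CPM in CEP and 40.0 CPM in Vehicle, a log2 ratio of 0.26 (0.18 to 0.34). Nfkbia had a log2 ratio of 0.23 (0.20 to 0.25), Nfkb2 of 0.19 (0.11 to 0.28), Nfkb1 of 0.19 (0.13 to 0.25) and Rel of 0.08 (0.03 to 0.12). For Relb, Nfkbib, Nfkbie, Nfkbiz and Bcl3 the ratio lay between -0.03 and 0.03 and its interval included 0. In the same gate 7 epithelial markers summed to 121 CPM in CEP and 32.4 CPM in Vehicle, all 7 higher in CEP, and 7 neutrophil markers to 1726 and 1458 CPM, also all higher. The estimated reach of free RNA for Nfkbia was 62.2 CPM in CEP and 38.4 CPM in Vehicle. The part of this RNA in the ratios was not tested.

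The macrophage subsets did not share 1 pattern. Nfkb1 was above 0 in all 5 subsets, with log2 ratios of 0.16 to 0.31. Nfkbia had 489 CPM in CEP and 352 CPM in Vehicle cycling macrophages, a log2 ratio of 0.47 (0.43 to 0.52). It was 0.34 (0.28 to 0.40) in macrophages of no named subset and 0.26 (0.20 to 0.33) in Cxcl9/Cxcl10 cells. In Arg1 cells, those with at least 3 Arg1 UMIs, it had 451 CPM in CEP and 447 CPM in Vehicle (0.02, -0.03 to 0.06). In Cbr2/Folr2/Cd163 cells it was 0.00 (-0.08 to 0.07). Nfkbiz ran from 0.17 (0.07 to 0.27) in cycling cells to -0.25 (-0.41 to -0.09) in Cbr2/Folr2/Cd163 cells. Whether these subsets differ in response was not tested. The list of digestion and heat genes, immediate early and heat shock genes known to be induced by tissue dissociation, had a median log2 ratio of 0.19 in macrophages, with 5 of 21 called higher and 0 lower, and its part in the Nfkbia values was not tested.

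**Figure D3:**
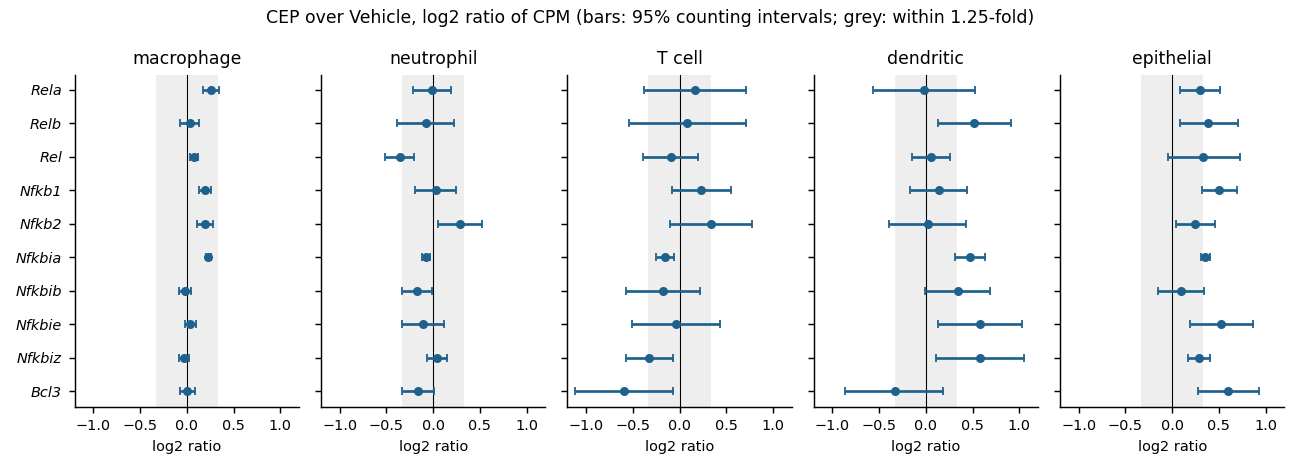
Log2 ratio of CPM, CEP over Vehicle (horizontal axis), of the 10 genes in each gated class, with 95% counting intervals. The grey band marks ratios between these limits. All macrophage points lie within the band, and all 10 epithelial points lie above 0.

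Epithelial cells, which had passed the CD45 selection, had the most uniform direction. Of 10 members, 6 were called higher, where 9.46% of 10869 genes were called higher, and 0 lower, where 12.3% were. The member median was 0.34 and the median of all genes -0.03, and all 10 members were above that gene median. Nfkb1 had 93.2 CPM in CEP and 65.8 CPM in Vehicle (log2 0.50, 0.31 to 0.70). Nfkbia had 1274 CPM in CEP and 996 CPM in Vehicle (0.36, 0.31 to 0.40). Bcl3 had 34.5 CPM in CEP and 22.8 CPM in Vehicle (0.60, 0.27 to 0.93). Nfkbie followed at 0.52 (0.19 to 0.86), Relb at 0.39 (0.09 to 0.70) and Rel at 0.33 (-0.05 to 0.73), whose interval included 0.

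The remaining 4 epithelial values were below the 25% limit. Rela had a log2 ratio of 0.30 (0.09 to 0.51), Nfkbiz of 0.29 (0.17 to 0.41), Nfkb2 of 0.24 (0.04 to 0.45) and Nfkbib of 0.09 (-0.15 to 0.34). Within the cycling and the Ndrg1/Car9/Ankrd37 cells all 10 ratios were above 0, and among the 183 CEP and 31 Vehicle cells of neither subset 9 of 10 were, the exception being Nfkb2 at -0.26 (-0.74 to 0.25). The largest Nfkb1 ratio, 0.71 (0.42 to 1.01), was in the Ndrg1/Car9/Ankrd37 cells, at 109 CPM in CEP and 66.8 CPM in Vehicle. With each cell thinned to 5000 UMIs, an alternative added after the data were seen, all 10 ratios were above 0 and 9 were called. With each cell thinned to 1000 UMIs, 5 members kept 50 UMIs and 1 of them was called. With the deepest 1% of barcodes left out, 4 members were called. Digestion and heat genes had an epithelial median of 0.13, with 4 of 21 higher and 2 lower. The higher ones were immediate early genes, with Fosb at 0.56 and Fos at 0.45. The lower ones were the heat shock genes Hspa1a, at -1.78, and Hspb1, at -0.83. The 7 epithelial markers of the gate summed to 2242 CPM in CEP and 2884 CPM in Vehicle, none of them higher in CEP, while all 7 neutrophil markers were higher. The part of these values was not tested. Nothing in the labels tells the 133 Vehicle cells apart by animal.

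**Figure D4:**
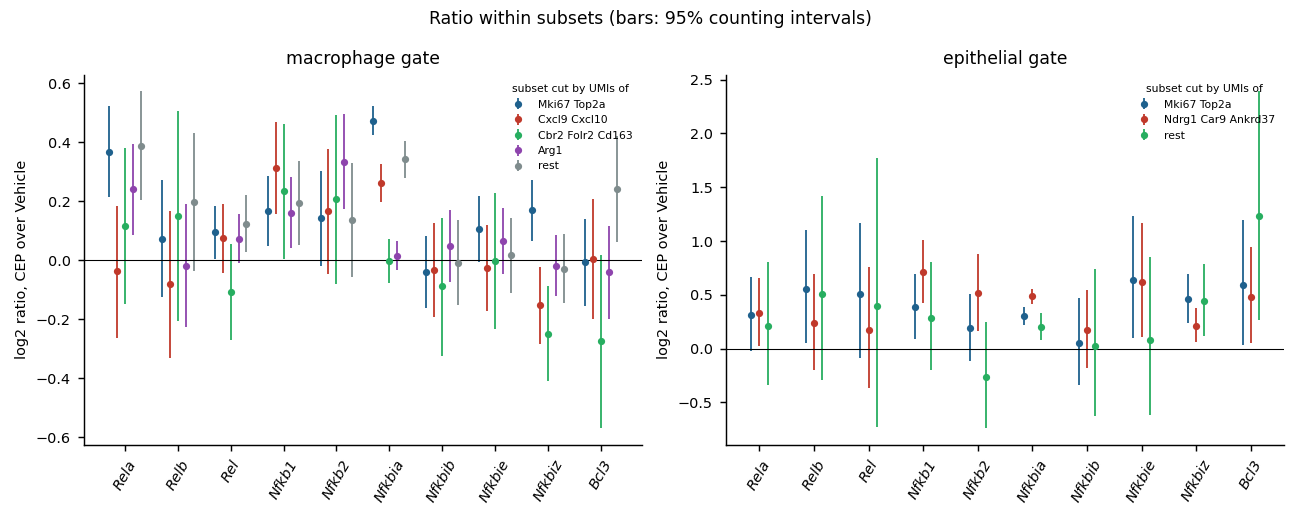
Log2 ratio of CPM, CEP over Vehicle (vertical axis), of the 10 genes within subsets of the macrophage gate (left) and the epithelial gate (right), with 95% counting intervals. Nfkbia in macrophages ranges from 0.00 in Cbr2/Folr2/Cd163 cells to 0.47 in cycling cells. In epithelial cells the points lie above 0 except Nfkb2 in the rest, at -0.26.

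In dendritic cells 5 members were called higher, where 14.9% of 4757 genes were, and 1 was called lower, where 15.3% were. Nfkbia had 786 CPM in CEP and 567 CPM in Vehicle (log2 0.47, 0.31 to 0.63). Nfkbiz had a log2 ratio of 0.58 (0.11 to 1.05), Nfkbie of 0.57 (0.13 to 1.02), Relb of 0.52 (0.13 to 0.91) and Nfkbib of 0.34 (-0.005 to 0.68). Bcl3 was the lower one, at 57.6 CPM in CEP and 72.7 CPM in Vehicle (-0.33, -0.86 to 0.19). The make-up of the gate differed: Ccr7/Fscn1 cells, which carry most Relb, were 42.4% of it in CEP and 33.7% in Vehicle. Within them Relb had a log2 ratio of 0.09 (-0.32 to 0.51) and Nfkbia of 0.20 (0.00 to 0.40). Within Xcr1/Clec9a cells Nfkbia had 313 CPM in CEP and 242 CPM in Vehicle (0.37, 0.02 to 0.72) and Nfkbiz 44.7 and 14.6 CPM (1.61, 0.38 to 2.95). Taken as the mean over subsets, an alternative added after the data were seen, 3 members were called, Nfkbiz at 0.77, Nfkbie at 0.51 and Relb at 0.45. The Xcr1/Clec9a values behind these means rest on 27 UMIs for Nfkbiz and 15 for Relb over both libraries, below the minimum of 50. With each cell thinned to 5000 UMIs Relb was 0.03 (-0.52 to 0.58), on 56 UMIs in CEP and 61 in Vehicle. Digestion and heat genes had a median of 0.33 in this gate, with 10 of 19 higher and 0 lower, and their part was not tested.

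In neutrophils 0 members were called higher, where 35.1% of 8367 genes were, and 1 was called lower, where 9.29% were. That member was Rel, at 112 CPM in CEP and 144 CPM in Vehicle (log2 -0.36, -0.52 to -0.20). The member median was -0.08 and that of all genes 0.12. Rel was below 0 under all 13 alternatives but past the limit in only some: it was -0.16 without barcodes that meet more than 1 gate and -0.27 without the deepest 1% of barcodes. Nfkb2 had 61.5 CPM in CEP and 50.4 CPM in Vehicle (0.29, 0.05 to 0.52), and was 0.35 without barcodes that meet more than 1 gate. Nfkbia was -0.07 (-0.12 to -0.03) over the gate, but 0.96 (0.76 to 1.15) in granule-gene cells and -0.22 (-0.27 to -0.17) in the neutrophils of neither subset. The fibroblast and epithelial marker RNA of the CEP gate given above moves with these values, and its part was not tested. Digestion and heat genes had a median of 0.21, with 8 of 21 higher and 0 lower, likewise not tested.

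In T cells 1 member was called higher, where 18.9% of 5071 genes were, and 2 were called lower, where 19.2% were. Nfkb2 had 102 CPM in CEP and 80.5 CPM in Vehicle (log2 0.34, -0.10 to 0.77). Bcl3 had 54.1 CPM in CEP and 81.4 CPM in Vehicle (-0.59, -1.12 to -0.07) and Nfkbiz 237 and 296 CPM (-0.32, -0.58 to -0.07). Bcl3 was below 0 under all 13 alternatives, but the signs of Nfkb2 and Nfkbiz each turned under 2 of 13, to -0.22 for Nfkb2 and 0.06 for Nfkbiz at the farthest. Nfkbia was -0.15 (-0.25 to -0.05) over the gate and split by subset. In cells with Cd8a or Cd8b1 it had 1613 CPM in CEP and 784 CPM in Vehicle (1.04, 0.831 to 1.254, in 43 and 65 cells). In Foxp3 cells it had 1643 CPM in CEP and 2240 CPM in Vehicle (-0.45, -0.69 to -0.20), and in the remaining T cells 1618 and 2263 CPM (-0.48, -0.62 to -0.35). CEP levels were thus alike across these subsets, and the Vehicle CD8 cells were the low ones. The T cell with the most Nfkbia UMIs held 160 of 1498 in CEP and 110 of 1969 in Vehicle. The subsets in which these cells lay were not examined. At least 10 UMIs of S100a8 and S100a9, neutrophil genes, were in 10.5% of CEP and 12.9% of Vehicle T cells. Without those cells Bcl3 alone was called, at -0.64. In this gate 4 fibroblast markers summed to 428 CPM in CEP and 1263.5 CPM in Vehicle, and 7 epithelial markers to 234 and 39.3 CPM. The estimated reach of free RNA for Nfkbia was 238 CPM in CEP and 419 CPM in Vehicle. For Bcl3 it was 14.9 and 27.8 CPM, for Nfkbiz 40.3 and 65.7 CPM and for Nfkb2 9.11 and 12.5 CPM. Digestion and heat genes had a median of -0.06, with 2 of 19 higher and 3 lower. The part of these values was not tested.

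Over all kept barcodes, 1 member was called higher, where 26.3% of 14170 genes did, and 0 lower, where 14.2% did. It was Nfkbia, at 832 CPM in CEP and 635 CPM in Vehicle (log2 0.39, 0.37 to 0.41). Epithelial cells, at 1274 and 996 CPM, supplied 23217726 of 88655557 UMIs in CEP and 3814666 of 81159657 in Vehicle. Rel, lowest in epithelial cells, was -0.24 over all kept barcodes, -0.36 in neutrophils and -0.10 in T cells, but 0.08 in macrophages, 0.06 in dendritic cells and 0.33 in epithelial cells. In the barcodes of no gate 0 members were called higher, where 14.7% of 10541 genes were, and 0 lower, where 8.60% were.

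The other genes of the pathway were taken from fixed lists, whose counts stand against the shares of all genes called higher and lower: 11.5% and 4.90% in macrophages, 35.1% and 9.29% in neutrophils, 18.9% and 19.2% in T cells, 14.9% and 15.3% in dendritic cells and 9.46% and 12.3% in epithelial cells. Some genes stand on more than 1 list, Traf1, Tnfaip3, Nfkbid and Tnf among them, so the counts of different lists overlap. Of the IKK complex and its upstream kinases and adaptors, 1 of 29 measured genes was called higher in macrophages and 0 lower, 2 and 1 of 27 in epithelial cells, and 4 and 2 of 17 in dendritic cells. Birc3, an E3 ligase of TNF receptor complexes, had 63.0 CPM in CEP and 42.5 CPM in Vehicle dendritic cells. Its log2 ratio was 0.57 (-0.02 to 1.16), with an interval that included 0. Traf1, an adaptor, was called higher in these 3 classes, at 24.9 and 19.3 CPM in macrophages, 380.0 and 265 CPM in dendritic cells and 45.1 and 35.7 CPM in epithelial cells. In T cells it was called lower, at 242 and 323 CPM. Of the negative regulators outside the members, 0 of 19 were called in either direction in macrophages, and 3 of 17 were called higher and 1 lower in epithelial cells. Tnfaip3, the deubiquitinase A20, had 244 CPM in CEP and 191 CPM in Vehicle epithelial cells. In T cells Nfkbid, a nuclear IkB gene, had 67.1 CPM in CEP and 154 CPM in Vehicle.

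Of the activating ligands and receptors, 1 of 22 was called higher and 4 lower in macrophages, Tnfsf13b (BAFF) among the lower ones at 22.5 CPM in CEP and 31.9 CPM in Vehicle. In T cells 2 of 13 were called higher and 5 lower, with Tnf at 45.4 CPM in CEP and 154 CPM in Vehicle. In epithelial cells 6 of 14 were called higher and 2 lower. Tnf was among the lower ones, at 18.8 CPM in CEP and 30.4 CPM in Vehicle. Tlr2 was among the higher ones, at 14.3 CPM in CEP and 8.91 CPM in Vehicle. Of textbook NF-kB target genes, 11 of 38 were called higher and 1 lower in macrophages, with a median log2 ratio of 0.05. Csf3, the neutrophil growth factor gene, had 19.1 CPM in CEP and 2.29 CPM in Vehicle macrophages, and Cxcl1, a neutrophil chemokine gene, 129.6 and 78.9 CPM. Csf3 stood at 359 CPM in CEP and 260.3 CPM in Vehicle epithelial cells, and epithelial markers reached the macrophage gate at a median of 4.88% of their epithelial level in CEP and 0.737% in Vehicle. The part of such RNA in macrophage Csf3 was not tested. In epithelial cells 14 of 32 targets were called higher and 5 lower, with a median of 0.20. The largest differences ran both ways there, with Ccl4 at 5.17 CPM in CEP and 1.05 CPM in Vehicle, and Ccl5 at 17.3 CPM in CEP and 68.7 CPM in Vehicle. The Vehicle Ccl4 value rests on 4 UMIs (log2 ratio 2.30, 0.91 to 4.20). Ccl4 had 919 CPM in CEP and 724 CPM in Vehicle neutrophils, and the part of neutrophil RNA in the epithelial value was not tested. In dendritic cells 9 of 27 targets were called higher and 10 lower, Cxcl1 among the lower at 57.6 CPM in CEP and 155 CPM in Vehicle. In neutrophils 9 of 35 were called higher, a smaller share than that of all genes, and 6 lower. In T cells 8 of 32 were called higher and 14 lower.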

How the data were processed

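The deposited matrices hold raw UMI counts per gene and cell barcode, per the file headers, with no normalization. The submitters' processing notes name Cell Ranger 5.0.1 and the mm10 build, and the matrix headers name version 7.1.0 of the same software. The handling of intronic reads is not stated in those notes or headers. The libraries held 9621 (CEP) and 9989 (Vehicle) barcodes with 88721774 and 81208647 UMIs. A barcode was kept if it had 200 or more genes and a mitochondrial share of 15% or less. Doublets were not removed: the automatic threshold of Scrublet (scanpy 1.11.5) marked 3 and 1 barcodes, so leaving out the highest 8% of scores is an alternative.

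UMIs were summed per class and library and given as CPM with exact Poisson 95% intervals. Ratios have exact conditional binomial 95% intervals. PCR and animal-to-animal spread lie outside both. A gene needed 50 UMIs over both libraries, and a call is a ratio of at least 25% above 1, or its reciprocal, 0.8, or less. A barcode could meet more than 1 gate. Subset membership was by first match, in macrophages in the order cycling, Cxcl9/Cxcl10, Cbr2/Folr2/Cd163 and Arg1. The interval code was tested on simulated data. All 10 members, and at most 4 genes per list and class, by largest log2 ratio among those called, could be named. Traf1 in T cells and Csf3 in epithelial cells fall outside that rule and were named after their values were seen. The members and lists were chosen with earlier results of these data known. Software was Python 3.11.15, numpy 2.4.6, scipy 1.17.1, pandas 2.3.3 and matplotlib 3.10.9.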

Additional observations from a re-analysis of the deposited data

Results flagged for a closer look

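Several members ran in opposite directions in different classes, with counting intervals on either side of 0 (log2 CEP over Vehicle). Nfkbia was 0.23 in macrophages, 0.47 in dendritic cells and 0.36 in epithelial cells, against -0.07 in neutrophils and -0.15 in T cells. The Nfkbia sign in neutrophils held under 10 of 13 alternatives and that in T cells under 12 of 13, and as the mean over subsets the values were 0.19 and 0.04. Nfkbiz was 0.58 in dendritic cells and 0.29 in epithelial cells, against -0.32 in T cells. Bcl3 was 0.60 in epithelial cells and -0.59 in T cells. Rel was 0.08 in macrophages and -0.36 in neutrophils. In the T cell gate the estimated reach of free RNA was larger in Vehicle for Nfkbia, Nfkbiz and Bcl3. Its part in these values was not tested. With 1 library per group, the difference between classes was not tested.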

How the results depend on the processing

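No paired analysis was possible because each group is 1 library. Of 690 member values under the alternatives, 617 moved by less than their interval, 63 moved and 10 changed sign after being called. The alternative with a lower UMI minimum reuses the main ratios, so its values cannot move and all count among the 617. The number of members called was 1 in macrophages (main 0) under thinning to 1000 or to 5000 UMIs per cell. In neutrophils (main 1, Rel lower) it was 0 for the mean CPM of cells and without the deepest 1% of barcodes. It was 2 under thinning to 1000 UMIs and as the mean over subsets. Under thinning these were Nfkb1 (0.41) and Nfkb2 (0.44), both higher, and Rel, at -0.24, was not called. As the mean over subsets Rel was called lower, at -0.67. Without barcodes that meet more than 1 gate Nfkb2 was called higher and Rel was not called. In T cells (main 3) the number called was 0 under thinning to 1000 UMIs, where 4 members could be measured. It was 1 with the S100a8 and S100a9 limit and as the mean over subsets. In dendritic cells (main 6) it was 1 under thinning to 1000 UMIs, where 2 could be measured, and 3 as the mean over subsets. In epithelial cells (main 6) it was 1 under thinning to 1000 UMIs, where 5 could be measured. Signs turned for Nfkb2 in T cells (mean CPM -0.024, thinned to 1000 UMIs -0.22 on 15 CEP and 28 Vehicle UMIs) and Nfkbiz in T cells (0.061 and 0.012). They turned in dendritic cells for Relb (thinned to 1000 UMIs, -0.52), Nfkbib (thinned, -0.22) and Nfkbiz (mean CPM, -0.082), and in epithelial cells, thinned to 1000 UMIs, for Rel (-0.19), Nfkbie (-0.81) and Bcl3 (-0.26). Except for Nfkbiz in T cells, the thinned values rest on fewer than 50 UMIs over both libraries, 11 in CEP and 2 in Vehicle for Rel in epithelial cells, and say nothing of stability. Nfkbia, not called in neutrophils or T cells, was above 0 there as the mean over subsets (0.19 and 0.04). The cause was not tested. The S100a8 and S100a9 limit, the deepest 1%, the mean over subsets and 5000 UMIs were chosen after seeing the data. Depth limits T cells and dendritic cells most, with 924304 to 1092994 UMIs per class and library.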
